A study of Mus musculus and Homo sapiens with 4 samples.

Results

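Mouse transcripts whose 5' leader drew more ribosome footprints than their coding region were chosen by their reads summed over a pair of ribosome profiling libraries. The rule required that neither library list the leader or the coding region as missing, that the leader hold 100 or more summed reads, and that it hold more summed reads than the coding region. It found 605 transcripts among 38526 with both parts, out of 93380 listed, and these are called leader-rich here. Of the 10677 transcripts with 100 or more leader reads they formed 5.67%. Another 10071, called coding-rich, had fewer leader than coding reads, and 1 had the same number of both.

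Both libraries were made from E14, a mouse embryonic stem (ES) cell line of the 129/Ola background. The cells grew feeder-free in the presence of LIF, which holds ES cells in the undifferentiated state. The emetine library followed 60 s of emetine, with no dose given in the labels, and the cycloheximide library followed 60 s of cycloheximide at 100 µg/ml. Both drugs arrest elongating ribosomes, and no library without a drug was analysed here. The series also holds a HEK pair, ribosomes captured through a tagged large subunit (bound) and lysate before capture (input). The labels list 10% serum for both HEK libraries. With 1 library per group there is no replicate, no p-value was computed, and each drug cannot be told apart from its library.

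A eukaryotic ribosome usually binds at the 5' cap and scans the leader until it meets a start codon. Where it meets a start codon within the leader it can translate an upstream open reading frame, which often lowers translation of the coding region downstream. Transcripts of stress response genes are the best known example: their leaders hold ribosomes while little of the protein is made. Ribosomes may also be counted in a leader because an isoform with another start places those same bases in its coding region, so a leader is defined here only by each transcript's own annotation.

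The files give raw counts of reads for each part of a transcript, and parts differ in length. More reads in the leader therefore does not mean more reads per base, and lengths were not used here. A higher footprint count can reflect more RNA or more ribosomes on each RNA, which these files cannot tell apart. The transcripts carry Ensembl transcript identifiers, and 0 of the identifiers occur in the gene name tables used here. No gene names, sequences or marker genes of ES cells are therefore given. Ratios are emetine over cycloheximide on the log2 scale. They are scaled so that the median coding region with 100 or more reads has a ratio of 0; by this measure the cycloheximide library was 1.76-fold deeper. Counts summed over transcripts were 188700177 with emetine and 342552347 with cycloheximide, and since isoforms repeat each other's reads these are not numbers of reads sequenced.

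Leader-rich transcripts stood apart mainly by few coding reads. Their coding regions had a median of 100 reads with emetine and 127 with cycloheximide, where coding-rich transcripts had medians of 1693 and 2933 reads. Their leaders had a median of 224 reads with emetine, between 27 and 49939, and 304 reads with cycloheximide, between 38 and 110285. The coding-rich leaders had medians of 143 reads with emetine and 188 with cycloheximide. Summed over both libraries, the middle part of the leader-rich set, from the lower to the upper quartile, ran from 232 to 1435 leader reads and from 88 to 568 coding reads. Among the reads of transcripts with both parts, they took 11.9% of leader reads with emetine and 12.5% with cycloheximide, but 0.27% and 0.22% of coding reads. Without the 4 transcripts richest in leader reads the leader shares were 8.85% with emetine and 8.74% with cycloheximide. These levels follow from the rule and are given as a description.

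**Figure D1:**
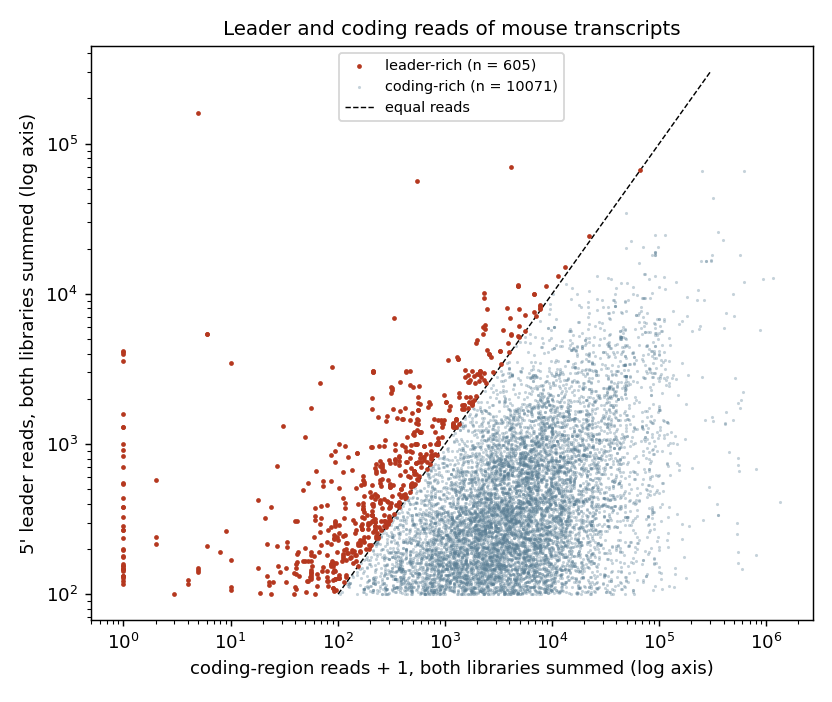
Leader reads against coding reads plus 1, both summed over the emetine and cycloheximide libraries, on log axes; each point is a transcript and the dashed line marks equal reads. The 605 leader-rich transcripts lie above the line, mostly at low coding counts, with 38 at 0 coding reads on the left edge, and the 10071 coding-rich transcripts lie below it.

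Most leader-rich transcripts exceeded their coding region by a small factor. Among the 567 with any coding read, the median was 1.8 leader reads per coding read, with quartiles at 1.27 and 3.10. Of all 605, 291 had at least 2 times as many leader as coding reads and 77 at least 10 times as many. The transcripts closest above the line had 847 leader and 845 coding reads, 282 and 281, and 238 and 237. Those closest below it had 423 leader and 426 coding reads, 134 and 135, and 1515 and 1530. At the minimum of 100 leader reads, 3 transcripts lay exactly on it and 1 missed it with 99 leader and 59 coding reads. A further 681 transcripts with more leader than coding reads fell below that minimum.

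Read library by library, the leader was ahead in both for most of the set. A transcript ahead in the sum must be ahead with emetine, with cycloheximide or with both, so these numbers are a description. The leader exceeded the coding region in both libraries in 495 of the 605, with emetine alone in 65 and with cycloheximide alone in 45. Among all 10677 transcripts with 100 or more leader reads, the leader was ahead in 719 (6.73%) with emetine and in 578 (5.41%) with cycloheximide. Transcripts that passed in emetine and not in cycloheximide numbered 224, and the reverse was found in 83. Pooled over the leader-rich set there were 2.47 leader reads per coding read with emetine and 2.09 with cycloheximide; without the 4 richest transcripts these were 1.99 and 1.66. In the coding-rich set the pooled numbers were 0.074 and 0.048.

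The richest leader held nearly all reads of its transcript. It had 49939 reads with emetine and 110285 with cycloheximide, while its coding region had 4 reads and 0 reads. At equal depth this leader was 1.26-fold lower with emetine, and it made up 10.6% of the leader reads of the set with emetine and 16.4% with cycloheximide. The leader was the dominant part in both libraries, and almost nothing of this transcript was read in the coding region or the trailer (0 trailer reads with emetine, 1 with cycloheximide).

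The next 3 leaders differed in how their coding region behaved. The second had 35650 leader reads with emetine and 34744 with cycloheximide, 1.8-fold higher at equal depth (95% exact counting interval 1.78 to 1.83). Its coding region had 1315 and 2797 reads in the same order, a ratio of 0.83 (interval 0.77 to 0.88). Leader and coding region thus went in opposite directions between the drugs, 2.18-fold apart.

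The third was close to the line of equal reads, with 26909 leader reads with emetine and 40343 with cycloheximide, against 18781 and 47515 coding reads. Its leader exceeded its coding region with emetine and fell short of it with cycloheximide. The leader ratio was 1.17 and the coding ratio 0.69. The fourth had 19566 leader reads with emetine and 36956 with cycloheximide, a ratio of 0.93, and 353 and 201 coding reads, a ratio of 3.09 (interval 2.59 to 3.69). Here the coding region and not the leader was the part that was higher with emetine. Intervals cover counting error only, since amplified copies of a footprint are not independent molecules.

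**Figure D2:**
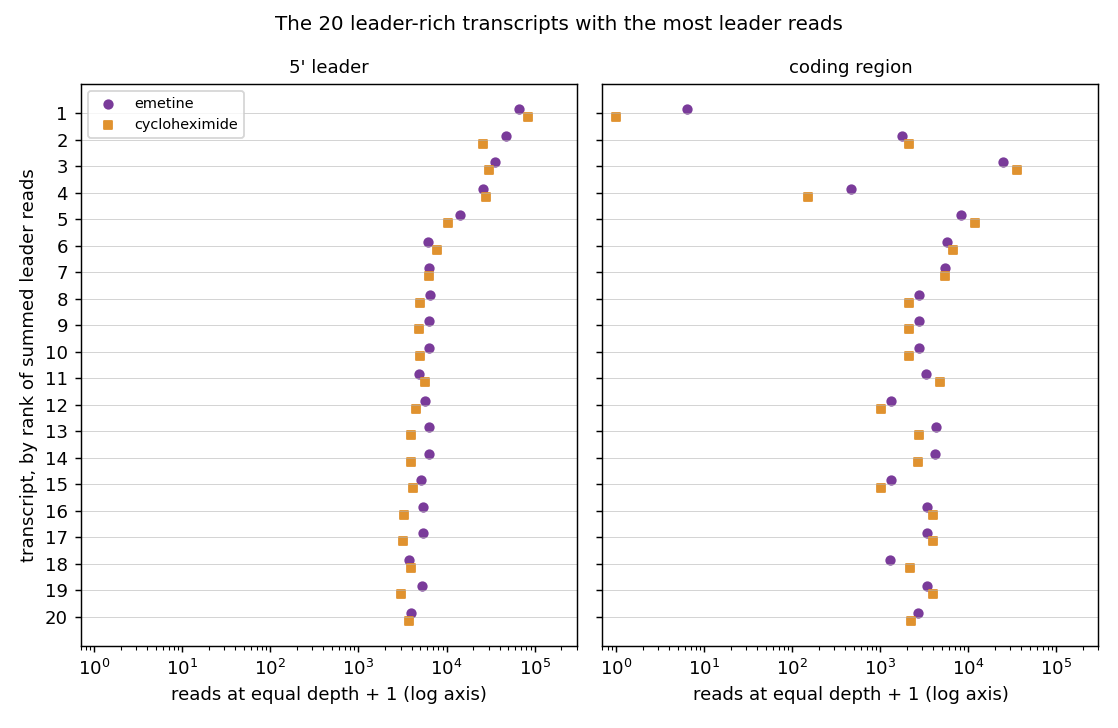
Reads plus 1 in the leader (left) and coding region (right) of the 20 leader-rich transcripts with the most leader reads, scaled to equal depth, with the emetine library above the cycloheximide library in each row, on log axes. Leader values of a transcript lie close together in both libraries; the coding region of the transcript ranked 1 has 4 reads with emetine and 0 with cycloheximide, and that of rank 4 is higher with emetine.

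Several of the richest leaders had nearly equal counts, as isoforms that share exons would. The transcripts ranked 8, 9 and 10 share a coding count of 2062 with emetine and 2782 with cycloheximide, and their leaders had between 4813 and 4852 reads with emetine and between 6526 and 6550 with cycloheximide. Leader and coding region had equal ratios there, 1.30 each in rank 8. Ranks 16, 17 and 19 share 2573 and 5196 coding reads; their leaders were 1.66-fold, 1.69-fold and 1.73-fold higher with emetine while the coding ratio was 0.87.

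In 38 leader-rich transcripts the coding region had 0 reads in both libraries. Their leaders held between 116 and 4179 summed reads, with a median of 268.5, and their median leader log2 ratio was 0.51. Leaders were higher with emetine in 32 of the 38, by 2-fold or more in 11. Coding-rich leaders were higher in 75.9%, and of all 10677 leaders with 100 or more reads 14.4% reached 2-fold. A drop of 2-fold or more with emetine was seen in 0 of the 38. Such drops made up only 1.96% of all leaders, so 38 rows are too few to compare on this point. The 4 of the 38 with the most reads had between 2190 and 2533 leader reads with emetine and between 1399 and 1646 with cycloheximide, with ratios between 2.69 and 2.75. Within a library, the number of reads outside the leader was the same in these 4 and in the next richest of the 38. That next transcript had 873 leader reads with emetine and 716 with cycloheximide, a ratio of 2.14. These transcripts may be isoforms counting the same reads. All of them lie among the 11, and linking by equal counts, described below, does not join them. In each library a coding count of 0 allows up to 3 reads. Another 19 transcripts of the set had between 1 and 9 coding reads, and 178 in all had under 100, so that 427 remained for ratios of the coding region.

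Repeat rows were common among the coding regions of the set. Of the 567 with any coding read, 195 (34.4%) had the same coding counts in both libraries as another leader-rich transcript, so that 452 different pairs of coding counts were seen. For leaders, 66 of 605 (10.9%) repeated another, leaving 568 different pairs. Of the 10071 coding-rich transcripts, 26.4% repeated another of their set in coding counts and 33.7% in leader counts. That set is larger and offers more rows to match. Rows equal in every part numbered 15, and counting them once left 597. Equal counts can come from shared exons, but small counts also coincide between unrelated transcripts, and the files do not say which rows belong to the same gene.

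At high counts, where coincidence is rarer, coding repeats were as common as at low counts. Of 104 leader-rich coding regions with 1000 or more reads 35 (33.7%) repeated another, against 26.5% of 8775 coding-rich ones, and of 192 leaders with 1000 or more reads 25 (13.0%) did, against 16.3% of 1783; the coding-rich set is larger and offers more rows to match. When rows with the same coding counts or the same leader counts, of 20 or more summed reads, were linked, the 605 rows formed 472 groups: 384 single rows, 64 pairs and 24 groups of 3 or more. Linking at 300 or more reads gave 532 groups, the largest of 6 rows. At 20 reads the largest held 7 rows, with 73 to 76 leader reads with emetine and 54 to 68 with cycloheximide, and at most 31 and 25 coding reads.

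Part of the set shared its leader counts with a coding-rich transcript. Among the 192 leader-rich transcripts with 1000 or more leader reads, 27 (14.1%) had the same leader counts in both libraries as a coding-rich row. Their own coding regions had a median of 605 summed reads, and the coding-rich rows with those leader counts had a median of 4230. For these 27 the same leader counts stood beside coding regions with different numbers of reads; whether such rows are isoforms of the same gene was not tested. Over all 605 the number was 153 (25.3%), which includes 89 of the 201 with under 300 leader reads, where equal counts are less telling. The median leader log2 ratio was 0.45 in the 153 and 0.39 in the other 452.

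The question put to the drug pair is whether footprints shift with the inhibitor. Leaders of the leader-rich set were higher with emetine, by about as much as leaders of coding-rich transcripts. Their median log2 ratio was 0.40 (1.32-fold), with quartiles at 0.12 and 0.72, and that of coding-rich leaders was 0.39 (1.31-fold), with quartiles at 0.018 and 0.77. The ratio was above 0 in 479 of 605 leader-rich transcripts (79.2%) and in 7647 of 10071 coding-rich ones (75.9%). The 95% interval of the median from ranks was 0.37 to 0.45 for leader-rich and 0.38 to 0.41 for coding-rich leaders. Such intervals treat transcripts as independent, which isoforms are not, and are too narrow.

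Large differences in the leader were no more frequent than in the background. At least 2-fold higher with emetine were 62 leader-rich leaders (10.2%), against 14.4% of all 10677 leaders with 100 or more reads. At least 2-fold lower were 3 (0.50%), against 1.96% of all. The share at least 2-fold higher was 13.9% in leaders of 100 to under 300 reads and 7.78% in those of 1000 to under 10000 reads; the coding-rich values were 17.9% and 9.93%. The leader-rich share was thus the lower in these bins as well.

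The leaders with the highest and lowest ratios had moderate counts. ENSMUST00000167667 had 185 leader reads with emetine and 87 with cycloheximide, 3.74-fold higher (95% exact counting interval 2.88 to 4.88). Its coding region had 135 and 57 reads in the same order, 4.16-fold higher (interval 3.03 to 5.78), so both parts were higher with emetine. ENSMUST00000137530 had 194 and 94 leader reads, 3.63-fold higher (interval 2.82 to 4.69), and 43 and 58 coding reads, a ratio of 1.30 (interval 0.86 to 1.97). At the other end ENSMUST00000080190 had 65 leader reads with emetine and 245 with cycloheximide, a ratio of 0.47 (interval 0.35 to 0.62), and 20 and 41 coding reads, a ratio of 0.86 (interval 0.48 to 1.5). ENSMUST00000127023 had 57 and 211 leader reads, a ratio of 0.47 (interval 0.35 to 0.64), and 77 and 174 coding reads, a ratio of 0.78 (interval 0.59 to 1.02). In the last 3 the counting interval of the coding ratio included 1.

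The coding regions of leader-rich transcripts differed more from those of coding-rich transcripts than the leaders did. Over the 427 with 100 or more coding reads, the median coding log2 ratio was 0.35 (1.27-fold higher with emetine), with quartiles at -0.067 and 0.70. Over the 10071 coding-rich transcripts it was -0.020, with quartiles at -0.30 and 0.25. The ratio was above 0 in 302 of 427 (70.7%) and in 4810 of 10071 (47.8%). Here 52 leader-rich coding regions (12.2%) were at least 2-fold higher with emetine and 6 (1.41%) at least 2-fold lower, where the background over all 28604 coding regions was 1.46% higher and 1.19% lower. The rule used the summed counts from which these ratios are made, and in those sums the deeper cycloheximide library weighs more. How far this choice shapes the ratios, here and at like counts below, was not tested.

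**Figure D3:**
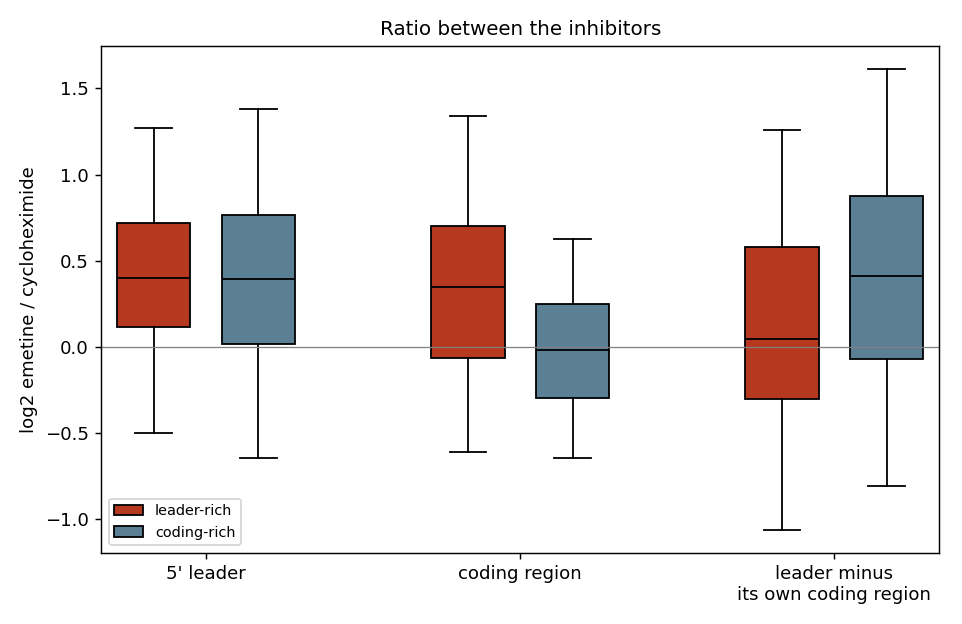
Log2 ratios of emetine over cycloheximide for leaders, coding regions and the difference of both within a transcript, for leader-rich and coding-rich transcripts; boxes run from quartile to quartile with the median as a line, and whiskers from the 5th to the 95th percentile. Leaders have medians of 0.40 and 0.39, coding regions of 0.35 and -0.020, and the difference 0.046 and 0.41.

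Coding regions with few reads tend to have higher ratios in this pair, and leader-rich coding regions have few reads, so the sets were also read at like coding counts. From 100 to under 300 coding reads the median coding log2 ratio was 0.31 in 168 leader-rich and 0.17 in 169 coding-rich transcripts. From 300 to under 1000 reads it was 0.42 in 155 and 0.16 in 1127, and from 1000 to under 10000 reads 0.26 in 100 and 0.049 in 5929. The leader-rich median was the higher in each of these bins. At 10000 or more coding reads 4 leader-rich transcripts had a median of -0.36, against -0.21 in 2846 coding-rich ones. The share at least 2-fold higher with emetine was 18.5% against 12.4% in the lowest of these bins, 12.3% against 2.93% in the next and 2.0% against 0.25% in the third, with leader-rich transcripts given first. Among all coding regions, with or without a counted leader, these shares were 7.37%, 2.0% and 0.17%.

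Within a transcript, the leader was therefore not consistently ahead of its coding region in the leader-rich set. The median difference of the log2 ratios, leader minus coding region, was 0.046 over 427 leader-rich transcripts, with a 95% interval from ranks of -0.022 to 0.13. It was 0.41 over the coding-rich transcripts, with an interval of 0.39 to 0.42. The difference was above 0 in 226 of 427 (52.9%) and in 7218 of 10071 (71.7%). A leader at least 2-fold higher than its own coding region was found in 41 leader-rich transcripts (9.60%), against 19.1% of the 10499 with enough reads in both parts, and one at least 2-fold lower in 27 (6.32%), against 3.42%. This difference does not depend on the scaling of the libraries, but the rule set the same leader and coding counts against each other. How far that shapes the difference was not tested. The spread was wide, with quartiles at -0.30 and 0.58.

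The median differences of both sets were alike where few reads were counted in the leader, and apart at higher counts. These bins also differ in how many leader-rich transcripts had the 100 coding reads needed. From 100 to under 300 leader reads 73 of 201 did. From 300 to under 1000 these were 178 of 212, and from 1000 to under 10000 they were 165 of 180. In leaders of 100 to under 300 reads the median difference was 0.34 in 73 leader-rich and 0.34 in 4599 coding-rich transcripts. From 300 to under 1000 leader reads it was 0.027 in 178 and 0.38 in 3689, and from 1000 to under 10000 reads 0.030 in 165 and 0.55 in 1732. At like coding counts it was 0.062 and 0.15 from 100 to under 300 coding reads, 0.039 and 0.21 from 300 to under 1000, and 0.045 and 0.35 from 1000 to under 10000, with leader-rich transcripts given first. The gap was therefore narrowest in the lowest of these coding bins, where it was small beside the spread. Quartiles there were -0.48 and 0.72 in leader-rich and -0.34 and 0.88 in coding-rich transcripts. The difference was above 0 in 51.8% and 56.2% in the same order.

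The leader-rich transcripts at the extremes show both directions. The leader with the largest positive difference had 136 reads with emetine and 106 with cycloheximide, while its coding region had 45 and 193, so that the ratios of leader and coding region were 5.50-fold apart. The leader with the largest negative difference had 65 and 69 reads, and its coding region 83 and 20, so that the leader ratio was 4.41-fold below the coding ratio. The rank 4 leader named above has the third largest negative difference. Over the 427 transcripts the leader and coding log2 ratios had a Spearman correlation of 0.10 (Pearson 0.16), and over the coding-rich transcripts -0.011 (Pearson -0.012). These are weak, run across transcripts that share reads and libraries, and are a description only.

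The coding ratio was higher the more the leader outweighed the coding region, and the leader ratio was not. In transcripts with under 0.1 leader reads per coding read the median coding log2 ratio was -0.079. It was 0.050 at 0.1 to 0.5 and 0.19 at 0.5 to 1, all among coding-rich transcripts. In leader-rich transcripts it was 0.23 above 1 and under 2 leader reads per coding read (286 transcripts), 0.41 from 2 to under 4 (102) and 0.54 from 4 to under 10 (32). The 7 transcripts with 10 or more that had enough coding reads had a median of 0.72, but by equal counts they formed 4 groups; without them the highest class is that of 4 to under 10. The median leader ratio in these 7 classes ran between 0.33 and 0.51, in no order. The class of a transcript uses the counts from which the ratios are made, summed over both libraries, so the course is a description and the part of low coding counts in it was not tested.

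**Figure D4:**
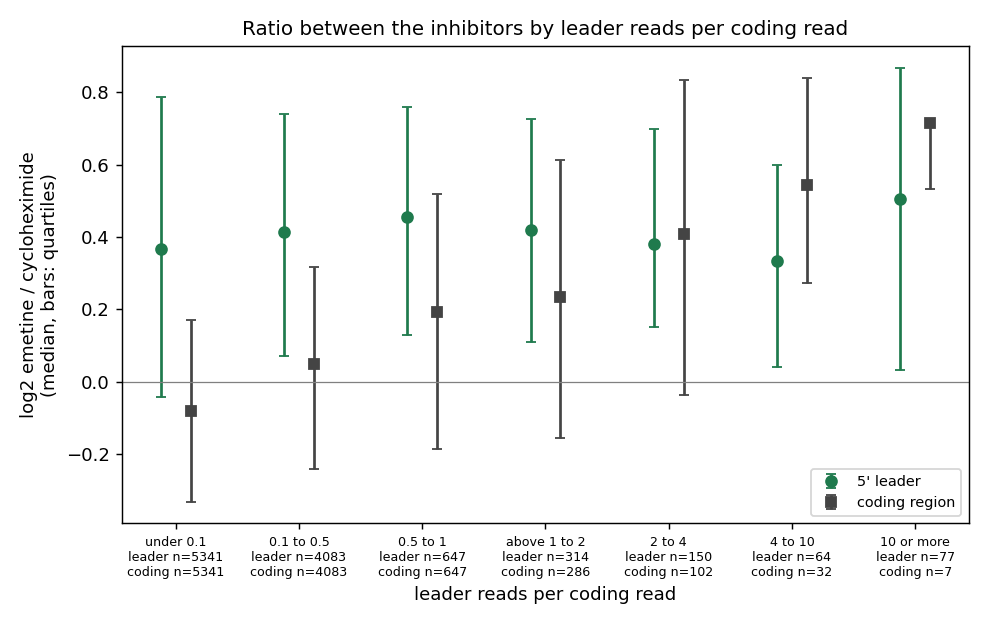
Median log2 ratio of emetine over cycloheximide, with bars from the lower to the upper quartile, for leaders and coding regions in classes of leader reads per coding read; coding regions need 100 or more reads. The coding median climbs from -0.079 in the lowest class to 0.54 at 4 to 10 leader reads per coding read, while leader medians stay between 0.33 and 0.51.

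Trailer reads, which the rule did not use, were also numerous in many of these transcripts. A trailer is the untranslated part after the stop codon, where few ribosomes are usually found. Of 574 leader-rich transcripts with a counted trailer 260 (45.3%) had 100 or more trailer reads, against 2096 of 9907 coding-rich ones (21.2%). More trailer than coding reads were counted in 208 (36.2%) against 335 (3.38%), and with 100 or more coding reads the median was 0.11 trailer reads per coding read in 412 leader-rich and 0.0034 in 9907 coding-rich transcripts. The rule picks low coding counts, which by itself raises these trailer values relative to coding reads, so they were also read at like coding counts.

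From 100 to under 300 coding reads the trailer exceeded the coding region in 81 of 159 leader-rich transcripts (50.9%) and in 42 of 163 coding-rich ones (25.8%). From 300 to under 1000 coding reads these were 46 of 151 (30.5%) and 132 of 1092 (12.1%), and from 1000 to under 10000 reads 13 of 98 (13.3%) and 149 of 5843 (2.55%). The median number of trailer reads in these bins was 216, 55 and 100 in leader-rich transcripts and 12, 10 and 16 in coding-rich ones. The leader-rich values were thus the higher within each bin too. They varied widely over the set, with quartiles at 0.016 and 2.38 trailer reads per coding read, and in 161 leader-rich transcripts the trailer exceeded the leader as well. Counting repeated trailer and coding counts once moved the median of 0.11 to 0.21.

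Between the drugs, leader-rich trailers were higher with emetine by less than coding-rich trailers, and not ahead of their coding regions. Over the 260 leader-rich trailers with 100 or more reads the median log2 ratio was 0.28, against 0.53 over the 2096 coding-rich ones. Against the coding region of the same transcript the median difference was -0.13 over 206 leader-rich transcripts, with 93 (45.1%) above 0, and 0.59 over 2096 coding-rich transcripts, with 74.5% above 0. In leader-rich transcripts neither untranslated part was thus ahead of the coding region by a clear median between the drugs. The rule used the coding counts that enter both differences, and the trailer difference was not read at like coding counts. How far this shapes the medians was not tested.

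The same rule was applied to the HEK pair to set a number beside that of the mouse. It found 213 transcripts among 1048 with 100 or more leader reads (20.3%), in 171 groups linked by equal counts. These libraries are much shallower, and only the richest leaders reached the minimum, so this share and the mouse share of 5.67% are not like for like. The HEK leader-rich transcripts held 28.8% of leader reads in the bound library and 54.5% in the input. These shares pool reads, and are not given without the richest leaders as they were for the mouse. The median leader log2 ratio of bound over input was -0.15 in this set, with a lowest value of -3.74, and -0.14 in HEK coding-rich transcripts.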

How the data were processed

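Reads of each library were counted by the authors as raw counts per transcript and for its coding region, 5' leader and 3' trailer, per the file headers. Lysates were digested with RNase I and ribosomes pelleted, per the labels' protocols. Per the submitters' processing notes, tools were CASAVA 1.8, Bowtie2 2.0.6 and TopHat2 2.0.7, with mm10 and hg19 as builds, and the step each served is not stated. How reads were assigned to transcripts, from which annotation release, and what was done with multiply matching reads is not given in the sources used; multiple counting of a read for several isoforms would repeat values between rows. The labels name no molecular identifiers.

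Mouse libraries were scaled by the median coding-region ratio over 28604 coding regions with 100 or more summed reads. Log2 ratios behind medians and counts of 2-fold differences carry a prior of 0.5 reads at equal depth; single folds with counting intervals (exact, Clopper-Pearson, 95%) use no prior. Of the planned naming rule, which would also have named genes and members of gene lists, the part without gene names was used: the 2 highest and 2 lowest leader ratios; other transcripts are given by rank or extreme, and the richest, the extremes of the difference and the largest linked groups were picked after their values were seen. The gene lists and marker lists were not run. Alternatives were total-count and summed-coding scaling, TMM scaling from edgeR 4.0.16 over coding regions, other minimums, a prior of 5, other thresholds and repeated counts taken once. Members, sets and lists were chosen with earlier results of these data known. Scripts ran in Python 3.11.15 with pandas 2.3.3 and scipy 1.17.1 and were tested on simulated data.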

Additional observations from a re-analysis of the deposited data

Results flagged for a closer look

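Some reads of a transcript fall outside its coding region, leader and trailer alike, and no comparison of parts uses them. In leader-rich transcripts that have every part, such reads made up 11.5% with emetine and 11.1% with cycloheximide. In coding-rich transcripts they made up 11% with emetine and 8.25% with cycloheximide. The share was higher with emetine in 314 of 574 leader-rich transcripts (54.7%) and in 7094 of 9907 coding-rich ones (71.6%).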

How the results depend on the processing

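No paired analysis was possible because there is only 1 library for each drug. The values given here are those outside the 95% rank interval of the reported median, or over 1.5 times away from the reported count. The number of leader-rich transcripts was 314 with a minimum of 500 leader reads and 291 where the leader had to reach 2 times the coding reads; under the other planned rules it lay between 404 and 793. Scaling to summed coding counts, which shifts every ratio by 0.24 and leaves the gaps between sets unchanged, gave median ratios of 0.64 for leaders and 0.58 for coding regions, with 133 leaders at least 2-fold higher and 0 lower. With minimums of 30 and 500 reads 111 and 27 leaders were at least 2-fold higher, and 28 and 1 at least 2-fold lower. At 1.5-fold these counts were 217 and 27, and at 4-fold 0 and 0. With 500 reads in both parts the coding-rich difference was 0.49, and with 500 coding reads the leader-rich trailers had a median of 0.042 reads per coding read. The leader-rich difference of leader and coding region lay between 0.042 and 0.052 under its alternatives. Taking 1 value per linked group and leaving out transcripts that share leader counts with a coding-rich one were chosen after seeing the data. The HEK rule found 698 transcripts at a minimum of 30 reads and 94 at 300. Low counts limit the coding ratios: 178 of 605 had under 100 coding reads.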

Other observations

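In the HEK pair, leader-rich transcripts found by the same rule had a median leader log2 ratio of bound over input of -0.15 over 213, and coding-rich ones of -0.14 over 834. Among leader-rich leaders 24 (11.3%) were at least 2-fold lower after capture, and among coding-rich leaders 19 (2.28%). The leader minus coding difference had a median of -0.085 over 95 leader-rich transcripts and -0.23 over 834 coding-rich ones. The 95% intervals from ranks, -0.19 to 0.0078 and -0.26 to -0.18 in the same order, overlapped slightly. As in the mouse pair, the leader-rich median lay nearer to 0, but the treatments differ, the difference was not tested, and each group has 1 library. In both pairs the same rule set the leader and coding counts behind this difference against each other. How far that shapes it was not tested.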
